A study of Caenorhabditis elegans with 6 samples.

Results

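The *nhr* genes of *Caenorhabditis elegans*, which code for nuclear hormone receptors, were examined in *ebax-1* mutants and in the wild type, at 2 stages. Members were all genes with a WormBase symbol starting with *nhr-* and at least 10 counts summed over the 6 libraries. The rule gave 229 members of 268 *nhr* genes in a table of 20447 genes, of which 17738 passed the same minimum. Of the 39 *nhr* genes left out, 15 had 0 counts in every library, and the highest had 9 counts in all. The lowest member had 11 counts and the highest 18533, and 26 members had under 50.

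Nuclear hormone receptors are transcription factors with a zinc-finger domain that binds DNA and a domain that, in many of them, binds a small lipid-like ligand. Nematodes carry a greatly enlarged set, most of it descended from an ancestor related to HNF4, a vertebrate receptor of liver and gut. Some members are orthologs of receptors found across animals and time molting and cell fates, others adjust fat metabolism and detoxification in the gut, and most have no known ligand or role.

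The series compared wild-type worms of strain N2 with *ebax-1(tm2321)* worms, which lack the worm ortholog of ZSWIM8, the receptor subunit of a ubiquitin ligase through which certain microRNAs are degraded. Larvae of the first stage (L1) were taken starved, after hatching in buffer, with 2 libraries from N2 and 2 from the mutant strain CZ9907. Gravid adults had grown with food for about 68 h, with 1 library from N2 and 1 from the mutant strain FX02321. All worms were raised at 20 °C and synchronized with bleach, and poly(A)+ RNA was sequenced from 3 µg of larval or 10 µg of adult total RNA. Both mutant strains carry the same *ebax-1* allele, the only one in the series. The study regards a change in piRNAs on chromosome IV as a second-site effect of the *tm2321* line, so effects of *ebax-1* and of other variants in these strains cannot be told apart here.

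The L1 libraries held 10937932 to 13425500 counts, and the adult libraries 21328335 (wild type) and 13148409 (mutant). CPM stands for counts scaled to the size of each library, with TMM factors that align the bulk of genes. *ebax-1*, on chromosome IV at 10286955 to 10293013, was measured at 79.3 and 77.3 CPM in wild-type L1 larvae and at 42.6 and 48.4 CPM in mutant L1 larvae. It fell by 0.79 on the log2 scale with a standard error (SE) of 0.10 and an adjusted p of 5.07e-06 in edgeR. In adults the wild-type library had 1051 counts and the mutant one 275, a ratio of 0.415 after scaling, with an exact binomial 95% interval of 0.362 to 0.474. Gene totals do not separate the deleted part of *ebax-1* from the rest. All intervals and floors given here reflect counting error alone.

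*The family in the genome.* The receptor genes were unevenly placed. Chromosome V held 151 of the 229 members, 65.9%, and 25.3% of all genes. Chromosomes IV and X held 30 and 22 members. Chromosome I held 14.2% of all genes but 7 members, and 16 of its 23 *nhr* genes were among those left out. With gaps of at most 10 kb between neighbours, 130 members lay in 34 runs and 99 stood alone. The longest run, from *nhr-123* to *nhr-131*, had 12 members between positions 451451 and 497297 of chromosome V (build WBcel235). The coding sequence had a median length of 1215 bases, from 279 to 2499. Members on chromosome V were expressed at a median of 8.16 CPM per kb of coding sequence in wild-type L1 larvae, against 39.9 on X, 30.9 on III and 29.3 on IV.

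*Levels.* Together the members made up 6390.4 and 6405 CPM in the wild-type L1 libraries and 5722 and 5895.5 CPM in the mutant ones, against 2714 CPM in the wild-type adult library and 2519 in the mutant. Under TMM scaling the mutant L1 sums were thus below both wild-type L1 sums, and both adult sums were below all 4 larval sums. The TMM factors were 0.911 and 0.900 in the wild-type and 1.030 and 0.987 in the mutant L1 libraries. Relative to library totals without these factors, the larval genotypes overlapped, and the adult libraries stayed below the larval ones. Between 122 and 127 members reached 10 CPM in an L1 library, and 81 and 79 did in the adult ones. Only a few genes were abundant: per kb of coding sequence, wild-type L1 larvae had most of *nhr-97* (255 CPM per kb), *nhr-88* (209) and *nhr-49* (141), followed by *nhr-1* (91.9), *nhr-3* (88.7) and *nhr-17* (86.6). In the wild-type adult library the order was *nhr-49* (79.2 CPM per kb), *nhr-97* (75.8), *nhr-66* (53.1), *nhr-274* (52.1), *nhr-68* (49.96) and *nhr-8* (46.6). *nhr-49*, a regulator of fatty acid desaturation and oxidation, and *nhr-97*, of which little is known, were thus near the top at both stages. Neighbours in the adult order rest on 1 library each and were not separated by a test.

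*Receptors changed by the ebax-1 mutation in L1 larvae.* Under TMM scaling nearly all called receptors fell, and the share that fell was near that of all genes. Of 207 members tested, 18 passed an edgeR adjusted p of 0.05 (8.7%, against 16.6% of all 13756 genes tested). One rose (0.483%, against 6.59% of all genes) and 17 fell (8.21%, against 9.97%). At an unadjusted p under 0.05 there were 35. The median log2 fold change was −0.03 over the members and 0.01 over all genes, and 96 of the 207 members were above 0. Libraries of the 2 genotypes did not overlap for 109 members (52.7%, against 56.2% of all genes). Among members with at least 20 CPM in wild-type L1 larvae, 18 of 81 were called (22.2%, against 24.3% of all genes at that level). The called members had a median of 59.1 CPM in wild-type L1 larvae, and all members tested a median of 14.9. The called members had a median absolute change of 0.50 on the log2 scale, and only *nhr-17* among them changed at least 2-fold.

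*nhr-17* changed most. It lies on chromosome X at 12663837 to 12667854. It was measured at 112 and 93.6 CPM in wild-type L1 larvae and at 30.98 and 30.7 CPM in the mutants, so that both mutant libraries, close to each other, lay far below the lower wild-type one. It fell by 1.74 on the log2 scale (SE 0.11, edgeR adjusted p = 1.85e-10).

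The next 3 receptors came close to 2-fold. *nhr-57*, which low oxygen induces through HIF-1, lies on chromosome V at 4131889 to 4135102 and was measured at 51.3 and 55.8 CPM in wild type and at 25.8 and 29.2 CPM in the mutant. It fell by 0.97 (SE 0.11, edgeR adjusted p = 1.81e-06). *nhr-21* (chromosome II, 7339229 to 7349133) was measured at 120.4 and 113.99 CPM in wild type and at 62.2 and 59.5 CPM in the mutant, and fell by 0.95 (SE 0.09, edgeR adjusted p = 1.55e-07). For both genes the wild-type and mutant libraries were far apart beside the gap within a genotype. *nhr-88* (chromosome II, 2976639 to 2987023), the receptor with the second highest level per kb in wild-type L1 larvae, went from 368 and 411 CPM to 195 and 245 CPM. It fell by 0.83 (SE 0.10, edgeR adjusted p = 4.19e-06), and its mutant libraries, though spread, stayed below both wild-type ones. The gene fits for *nhr-17*, *nhr-57*, *nhr-21* and *nhr-88* kept their call in all 9 alternatives tried.

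The others that fell had log2 values of −0.81 to −0.29. *nhr-62*, required for the longer life of worms on a restricted diet, was at 27.05 and 23.3 CPM in wild type and at 13.9 and 15.003 CPM in the mutant. It fell by 0.81 (edgeR adjusted p = 0.000305). *nhr-80*, which acts with NHR-49 on fatty acid desaturases, went from 43.6 and 49.9 CPM to 31.8 and 33.5 CPM and fell by 0.52 (edgeR adjusted p = 0.00177). *nhr-91*, a relative of the vertebrate germ cell nuclear factor, went from 24.1 and 21.4 CPM to 16.9 and 12.8 CPM and fell by 0.62 (edgeR adjusted p = 0.00681). The genotypes did not overlap for any of these genes, but the 2 mutant libraries of *nhr-91* lay farther apart than its wild-type ones. The log2 values of the other receptors that fell outside chromosome V were −0.63 for *nhr-5*, −0.43 for *nhr-105*, −0.36 for *nhr-138*, −0.47 for *nhr-11*, −0.30 for *nhr-4* and −0.29 for *nhr-19*. Of the 17, 5 lay on chromosome IV, which also holds *ebax-1* and where 28 members were tested. Of these 5, *nhr-4* lay at −0.409 Mb and *nhr-138* at −0.563 Mb from *ebax-1*, and the other 3 farther away. At similar distances *nhr-97* (−0.529 Mb), *nhr-100* (−0.560 Mb), *nhr-38* (−0.579 Mb) and *nhr-34* (−0.620 Mb) did not pass. *nhr-3* was the single receptor that rose, from 116 and 130.4 CPM to 156 and 143 CPM, by 0.28 (SE 0.09, edgeR adjusted p = 0.0375).

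Neighbouring genes accounted for most of the calls on chromosome V. The run from *nhr-133* to *nhr-96*, 9 members between positions 2210510 and 2235180, held *nhr-133*, *nhr-103*, *nhr-18* and *nhr-126*, which fell, with log2 values of −0.37, −0.50, −0.50 and −0.38. *nhr-133* and *nhr-126* each lost their call in 5 of the 9 alternatives, with DESeq2 among them, and *nhr-103* and *nhr-18* in none. *nhr-18* was at 84.0 and 83.8 CPM in wild type and at 57.8 and 61.0 CPM in the mutant. *nhr-103*, its neighbour, was at 43.7 and 41.6 CPM and at 28.2 and 32.6 CPM. Between and beside them, *nhr-184*, *nhr-56*, *nhr-128*, *nhr-134* and *nhr-96* did not pass the test, with log2 values of 0.02, 0.08, −0.34, −0.07 and 0.16. The run was singled out after its values were seen. Over all runs 5 of 117 tested members fell, and of 90 tested members that stood alone 12 fell and 1 rose. Reads shared by close copies were not counted, so levels of recent duplicates in such runs are uncertain.

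**Figure D1:**
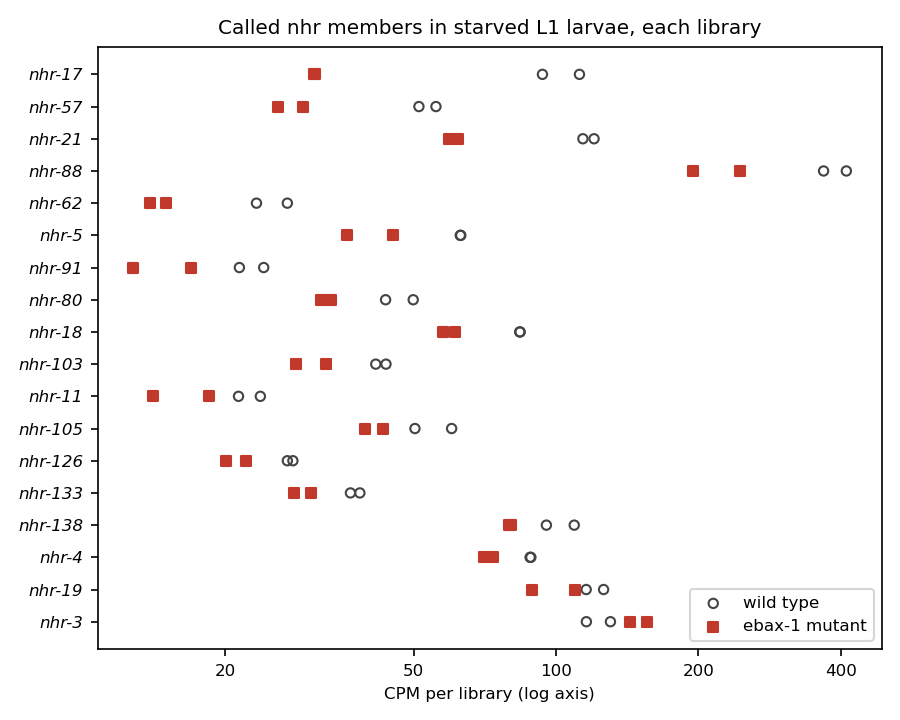
CPM of the 18 called members in each of the 4 L1 libraries, on a log axis, with wild-type libraries as open circles and *ebax-1* mutant libraries as filled squares. The squares lie to the left of the circles for 17 genes, with the widest gap at *nhr-17*, and to the right for *nhr-3*.

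The calls depended on the scaling and on the libraries. Scaled by total counts, 13 members rose and 10 fell, where 2341 of all 13756 genes rose and 728 fell. Among all genes the share of calls that were higher thus went from 39.8% to 76.3%. Leaving out either wild-type replicate left fewer calls, among members and among all genes alike. The median log2 of members was −0.05 without wild-type replicate 2 and −0.01 without replicate 1. That of all genes was 0.01 in both.

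*Markers in the L1 libraries.* Marker genes of some tissues also differed between the genotypes. The 8 intestine markers summed to 14954 and 16013 CPM in wild type and to 11561 and 12554 CPM in the mutant, with 3 fallen and 1 risen. Most of that sum was *asp-1*, at 11209 and 11955.5 CPM in wild type, and the median log2 value of the 8 markers was −0.07. The 5 body wall muscle markers summed to 20605 and 23389.6 CPM and to 15558 and 17819 CPM, with 3 fallen. *unc-54* made up most of that sum, and *myo-3* and *hlh-1*, at 0.07 and 0.10, did not pass. The 11 oocyte and maternal markers summed to 85.2 and 85.8 CPM and to 202 and 148 CPM, with 6 risen and 0 fallen. Of 7 neuron markers 1 fell, and of 10 germline markers 2 rose. None of the 5 pharynx and 7 epidermis markers tested passed. In whole worms, fewer cells of a type and less RNA per cell cannot be told apart, and the part of such shifts in the receptor values was not tested.

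*Receptors by role in L1 larvae.* Of the 10 receptors conserved across animals that were tested, *nhr-91* fell and none rose, with a median log2 of −0.07. Over all genes 9.97% fell and 6.59% rose. The counts in this and the next role groups are small and near what these shares give. *nhr-25*, the ortholog of Ftz-F1 and NR5A that acts in molting and epidermal cell fate, had 66.3 and 70.6 CPM in wild type and 67.2 and 71.1 CPM in the mutant, a log2 value of 0.01 (SE 0.09). *nhr-23*, related to ROR and needed for molting, stood at −0.01 (SE 0.18), and *nhr-85*, related to Rev-Erb, at −0.09 (SE 0.14). For *nhr-6*, the NR4A ortholog, which shapes the spermatheca, the wild-type libraries were at 68.97 and 68.4 CPM and the mutant ones at 48.9 and 68.3 CPM. Its value of −0.24 did not pass (edgeR adjusted p = 0.189), and without mutant replicate 2 it was −0.49 (edgeR adjusted p = 0.000226), so that 1 library decided the call. *nhr-67*, the ortholog of tailless, *nhr-41*, *nhr-48*, *nhr-8* and *nhr-239* had values of −0.03, −0.04, −0.13, −0.19 and 0.56, and none passed.

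Of 12 metabolic receptors *nhr-62* and *nhr-80* fell and none rose, with a median of −0.09. *nhr-49* was at 222 and 202 CPM in wild type and at 188 and 213 CPM in the mutant, overlapping, with a log2 value of −0.09 (SE 0.09, edgeR adjusted p = 0.577). *nhr-66* and *nhr-13*, which bind NHR-49, stood at 0.05 and 0.04. *nhr-10* and *nhr-68*, which turn on the propionate breakdown shunt when vitamin B12 is short, were at −0.10 and −0.11, and *nhr-114*, which lets worms thrive on certain bacterial diets, was at −0.25 (edgeR adjusted p = 0.167). *nhr-31*, which acts in the excretory cell, *nhr-64*, *nhr-69* and *nhr-76* ranged from −0.21 to 0.03.

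Of 7 receptors of foreign compounds, pathogens and metals, *nhr-57* fell. *nhr-86*, a sensor of a bacterial metabolite, had a log2 value of 0.01 and *nhr-14* of −0.11. *nhr-45* was at 0.07 and *nhr-176*, which acts in the response to a drug, at −0.30 (edgeR adjusted p = 0.447).

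Of 8 developmental receptors tested none passed, with a median of −0.02. The role groups overlap: *nhr-6*, *nhr-23*, *nhr-25*, *nhr-67* and *nhr-85* are both conserved and developmental receptors here. *nhr-8* and *nhr-48* are in both the conserved and the xenobiotic group. *nhr-2*, which is expressed in the early embryo, had 1.31 and 2.57 CPM in wild type and 4.26 and 3.33 CPM in the mutant. The libraries did not overlap, and the value of 0.98 lay just outside the threshold (SE 0.34, edgeR adjusted p = 0.0561) and passed it in 4 alternatives. *nhr-40*, which acts in muscle development, stood at −0.15 and *nhr-60* at 0.43 (edgeR adjusted p = 0.327).

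*Genes that work with the receptors in L1 larvae.* Several genes tied to NHR-49 fell, while *nhr-49* itself did not pass the test. Of 9, 6 fell and 1 rose, with a median of −1.26. *hacd-1*, a lipid dehydrogenase gene, was at 46.1 and 59.1 CPM in wild type and at 14.7 and 11.3 CPM in the mutant and fell by 2.01 (edgeR adjusted p = 2.37e-09). The other genes that fell were the desaturase genes *fat-5* (−1.26) and *fat-6* (−0.95), the oxygenase gene *fmo-2* (−1.30), *acs-2*, which activates fatty acids for oxidation (−1.35), and *icl-1*, of the glyoxylate cycle (−0.94). *ech-1.1* rose by 0.88, *cpt-5* stood at 0.05, and *fat-7*, with at most 1.24 CPM in an L1 library, had a value of −1.62 that did not pass. These 9 genes were picked as lipid genes tied to NHR-49, with earlier results of these data known, so their shared role is no result. Of 5 propionate shunt genes *hphd-1* rose by 0.31, and of 4 zinc response genes *mtl-1*, a metallothionein gene, fell by 1.03. Of 3 genes tied to NHR-86, *irg-5* rose by 1.08 and *irg-4* fell by 0.90. Of 5 *cyp-35* cytochrome genes tested, *cyp-35B1* (−1.71) and *cyp-35A2* (−0.67) fell.

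Dafachronic acids are the steroid ligands of DAF-12, a receptor without the *nhr-* symbol. Of 7 genes of that pathway 2 fell. *daf-9*, the cytochrome that makes the ligand, was at 5.48 and 6.55 CPM in wild type and at 2.64 and 2.69 CPM in the mutant and fell by 1.18 (edgeR adjusted p = 0.0037). *ncr-1*, which moves cholesterol, fell by 0.57. *daf-12* did not pass, with a log2 value of −0.07, and of 5 such receptors tested *sex-1*, an X-linked signal in sex determination, rose by 0.50 (edgeR adjusted p = 0.0262). None of the 4 co-regulator genes passed: *mdt-15*, a Mediator subunit that NHR-49 binds, stood at 0.03, *cbp-1* at −0.22, *din-1* at −0.18 and *gei-8* at −0.15. None of 6 molting genes tested passed, with a median of −0.15, and *nas-36* came nearest at −0.86 (edgeR adjusted p = 0.0572).

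*Receptors between starved L1 larvae and fed adults.* Most receptors were lower in adults. In a fit over all 6 libraries with genotype and stage as terms, 185 of 209 members tested were called (88.5%, against 85.9% of all 15800 genes), 169 of them lower (80.9%, against 41.9% of all genes) and 16 higher (7.66%, against 44% of all genes). The median log2 difference of adults from L1 larvae was −1.31 over the members and 0.05 over all genes, and the quartiles of the members were −2.16 and −0.59. At least 2-fold lower and called were 128 members (61.2%, against 33.1% of all genes). The 4 L1 and 2 adult libraries did not overlap for 183 members (87.6%, against 86.3% of all genes). Feeding, RNA input, age and, for the mutants, strain changed together with stage, and their parts cannot be told apart.

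**Figure D2:**
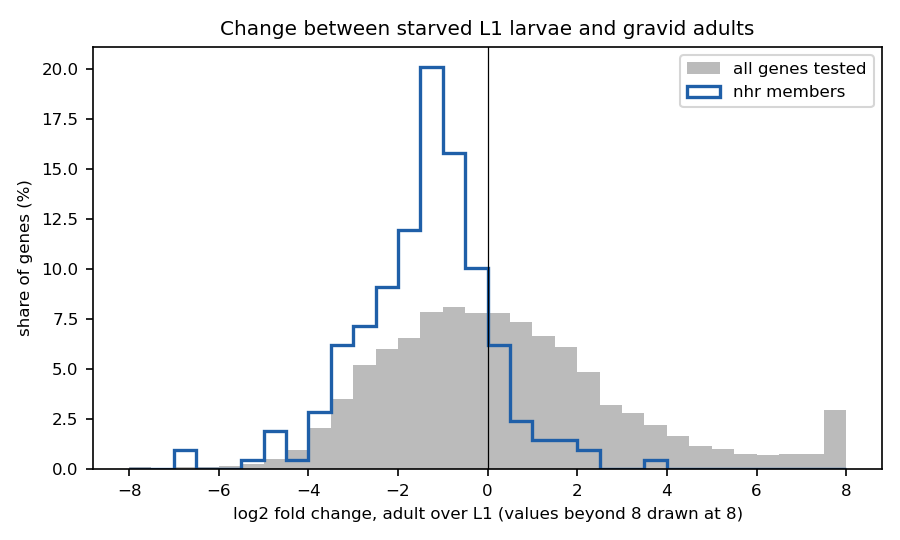
Log2 fold change of adults over L1 larvae in the fit over 6 libraries, as shares of the 209 members tested (blue line) and of the 15800 genes tested (grey), in steps of 0.5. The members peak below 0, with a median of −1.31, whereas all genes spread about a median of 0.05.

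The median of members was lower in adults on each chromosome, though on I 4 of 7 were called lower and 3 higher. The median log2 difference of members was −0.71 on chromosome I, −1.38 on II, −0.88 on III, −1.30 on IV, −1.23 on V and −1.98 on X, where that of all genes was 0.81, 0.39, 0.52, 0.39, −0.37 and −1.17. All 19 members tested on X were called lower in adults, on a chromosome where the median of all genes was also below 0. On V, where most members lie, 108 of 138 were lower and 10 higher. The share of all genes called on each chromosome was not computed. Members in runs had a median of −1.15 and members that stood alone −1.41.

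Tissue markers changed between the stages as well. The germline markers, 10 of 10 higher in adults, summed to 65.5 to 97.4 CPM in L1 libraries and to 1636 and 1392 CPM in adults, and the oocyte and maternal markers, 11 of 11 higher, to 85.2 to 202 CPM and to 4569.6 CPM and 4339 CPM. The yolk genes, 6 of 6 higher, went from at most 3.98 CPM to 38532 and 42741 CPM, and *vit-4* had 0 counts in every L1 library. The muscle markers, 5 of 5 lower, summed to 15558 to 23389.6 CPM in larvae and to 1695 and 2313.5 CPM in adults. The neuron markers, 7 of 7 lower, went from 2218 to 3071 CPM to 321 and 229 CPM. The pharynx markers, 5 of 5 lower, had a median of −2.60, and the intestine markers, 5 of 8 lower and 1 higher, a median of −1.18. Epidermis markers went mostly the other way, with 7 of 9 higher and 2 lower and a median of 2.74. All 9 sperm markers tested were higher. The part of these shifts in the receptor values was not tested.

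*Developmental and conserved receptors by stage.* Conserved receptors, 9 lower and 1 higher of 10, had a median of −2.18, and developmental ones, 6 lower and 2 higher of 8, a median of −2.31. These groups share *nhr-6*, *nhr-23*, *nhr-25*, *nhr-67* and *nhr-85*, so their medians are not independent. *nhr-6* was at 48.9 to 68.97 CPM in the L1 libraries and at 2.43 and 2.69 CPM in adults, a difference of −4.66 (SE 0.20, edgeR adjusted p = 5.94e-08). *nhr-25* was at 66.3 to 71.1 CPM and at 2.56 and 3.57 CPM, a difference of −4.53 (SE 0.16, edgeR adjusted p = 2.47e-08). Both genes were thus low in adults of either genotype. The differences of the others that were lower were −2.46 for *nhr-85*, −2.65 for *nhr-67*, −1.90 for *nhr-48*, −1.76 for *nhr-91*, −1.30 for *nhr-41*, −3.25 for *nhr-239* and −0.37 for *nhr-8*.

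*nhr-23* went the other way, from 8.85 to 10.3 CPM in larvae to 32.0 and 31.5 CPM in adults, 1.71 higher (SE 0.13, edgeR adjusted p = 1.77e-06). All 7 molting genes were also higher in adults, with a median of 1.98. *mlt-11* was higher by 2.78 and *noah-1*, of the apical matrix, by 1.85. *nhr-2* rose from 1.31 to 4.26 CPM in larvae to 13.03 and 11.99 CPM in adults, by 2.17 (edgeR adjusted p = 9.27e-05). *nhr-40* and *nhr-60* were lower, with differences of −1.25 and −2.16.

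*Metabolic and xenobiotic receptors by stage.* Metabolic receptors had the median nearest 0 of the 4 role groups, with 7 lower and 2 higher of 12 and a median of −0.62. *nhr-66* was at 100.01 to 108 CPM in larvae and at 118 and 108 CPM in adults, a difference of 0.12 that did not pass (edgeR adjusted p = 0.266). *nhr-68* stood at 0.27 (edgeR adjusted p = 0.122), and both genes passed as higher under another scaling. *nhr-49* was lower by 0.89, from 188 to 222 CPM to 119.4 and 106 CPM. *nhr-76*, which acts in fat loss driven by serotonin, rose by 1.61, from 4.16 to 6.46 CPM to 12.02 and 21.95 CPM, and *nhr-69* by 0.32.

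The other metabolic receptors that were lower were *nhr-31* (−1.40), *nhr-114* (−1.18), *nhr-64* (−0.90), *nhr-10* (−0.88), *nhr-62* (−0.71) and *nhr-13* (−0.52). Without the wild-type adult library *nhr-62* was at −0.38 (edgeR adjusted p = 0.0688) and *nhr-13* at −0.40 (edgeR adjusted p = 0.0534), so both calls were lost, and that of *nhr-13* was also lost under total count scaling. *nhr-80*, at −0.26, did not pass (edgeR adjusted p = 0.0615). Against these levels, 4 of 5 propionate shunt genes were higher in adults. *acdh-1*, whose dehydrogenase opens the shunt, was higher by 3.93, and *alh-8* was lower by 2.47. Of the 9 genes tied to NHR-49, 5 were higher and 1 lower, with a median of 0.76.

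Of the 7 xenobiotic, pathogen and metal receptors, 5 were lower and 2 higher. *nhr-176* rose by 2.18, from 4.45 to 6.37 CPM in larvae to 20.5 and 28.5 CPM in adults, and *nhr-86* by 0.35 (edgeR adjusted p = 0.0411), a call lost without any 1 of the L1 libraries or the wild-type adult one. *nhr-57*, *nhr-45* and *nhr-14* were lower, with differences of −2.57, −2.17 and −1.31. *nhr-8* was lower by 0.37, a call lost under the other scalings, with DESeq2 and without wild-type L1 replicate 1. All 4 co-regulator genes were lower in adults, with a median of −1.83.

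**Figure D3:**
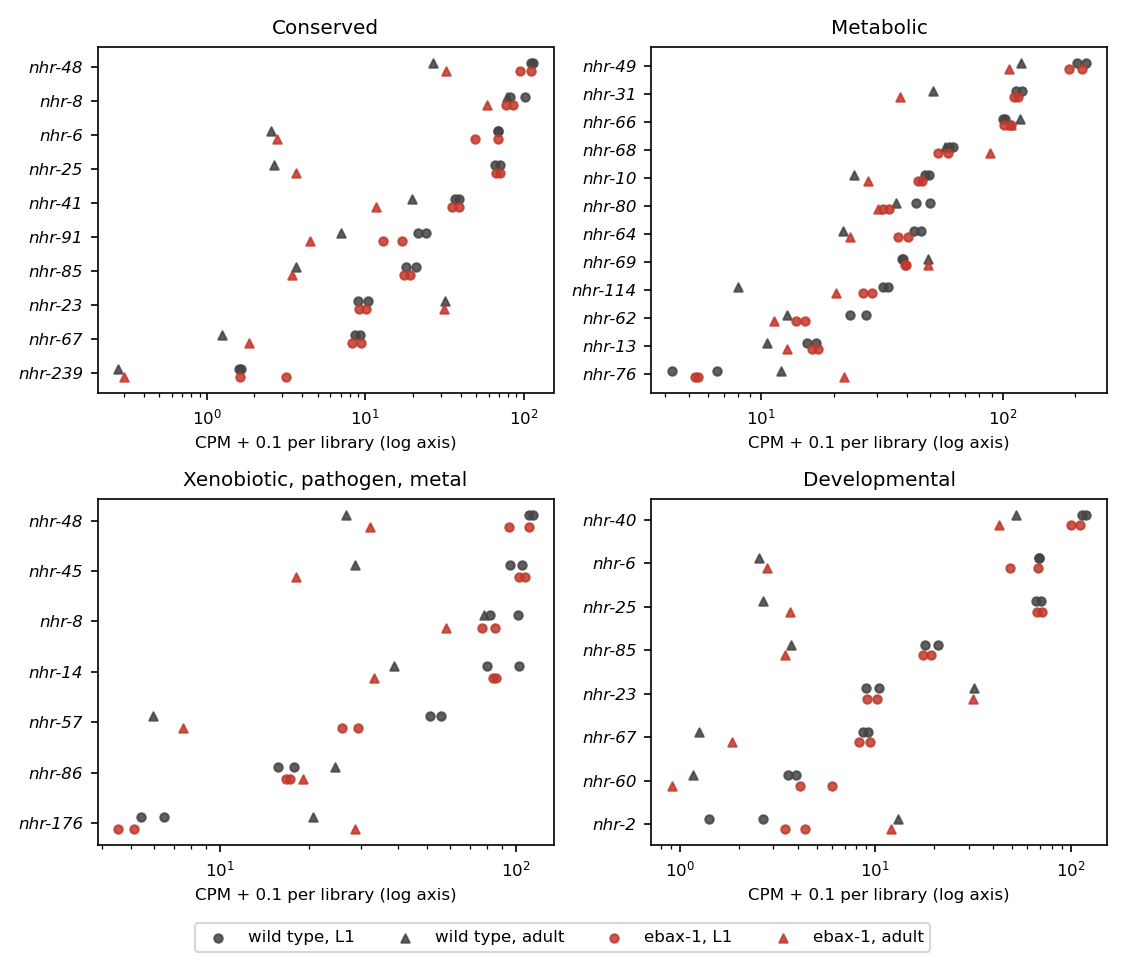
CPM, with 0.1 added, of each tested member of the conserved, metabolic, xenobiotic and developmental groups in the 6 libraries, on log axes. Circles are L1 and triangles adult libraries, grey is wild type and red the *ebax-1* mutant. The adult triangles of *nhr-6* and *nhr-25* lie far to the left of their circles, those of *nhr-23*, *nhr-2* and *nhr-176* lie to the right, and those of *nhr-66* lie close to them.

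*The receptors that differed most between stages.* Among the members tested in the stage fit, the largest rise was that of *nhr-181*, with 2, 1, 11 and 4 counts in the L1 libraries and 108 and 99 in adults, higher by 3.91 (SE 0.44, edgeR adjusted p = 2.23e-05). Of the members with too few counts for that fit, *nhr-257* had 1 larval and 17 adult counts, a ratio of 20.9 with a counting interval of 3.27 to 873, and *nhr-249* had 0 and 15. At the other end, *nhr-189* had 46 counts over the 4 L1 libraries and 0 in adults, at least 12.5-fold lower against a floor of 3 counts over both adult libraries. *nhr-290* had 189 counts in L1 larvae and 1 in adults, a ratio of 154 with an interval of 27.3 to 6104. *nhr-38* had 175 and 3, a ratio of 47.4 (15.97 to 232). *nhr-283* and *nhr-27* had 72 against 2 and 48 against 1 counts. These genes were nearly silent in both adult libraries, and *nhr-27* overlaps another coding sequence on its strand, so its counts are uncertain.

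*nhr-189* lies in a run of 9 members at 3844429 to 3886204 of chromosome V, from *nhr-185* to *nhr-124*, that was low throughout in adults. Their mean levels were 0.64 to 10.0 CPM in wild-type L1 larvae and 0 to 0.972 CPM in the wild-type adult library. *nhr-157* had 105, 129, 99 and 93 counts in the L1 libraries and 22 and 10 in adults, and *nhr-158* 107, 109, 87 and 104 counts and 17 and 20. All 9 were called lower. The 8 besides *nhr-189* had fitted differences of −3.72 to −1.47. By contrast, the longest run, from *nhr-123* to *nhr-131*, spanned differences of −1.81 to 0.82 within its 12 members. Both runs were singled out after their values were seen.

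Among the abundant receptors, *nhr-3* and *nhr-1* were lower in adults, with differences of −3.80 and −3.56. *nhr-1* had 134, 135, 135 and 139 CPM in L1 libraries, with almost no spread, and 11.4 and 11.9 CPM in adults. *nhr-88* (−2.72), *nhr-97* (−1.66), *nhr-17* (−1.498) and *nhr-274* (−0.48) were lower too, the last not under total count scaling, with DESeq2 or in wild-type libraries alone. Of the receptors that fell in mutant larvae, *nhr-21* (−1.39), *nhr-5* (−0.66), *nhr-105* (−0.94), *nhr-138* (−1.09) and *nhr-18* (−1.46) were also lower in adults than in larvae.

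*The ebax-1 mutation in adults.* With 1 library per genotype there was no test of the adult difference, and ratios have counting intervals only. Over 168 members with at least 50 counts, 4 were at least 2-fold higher in the mutant (2.38%, against 3.19% of all 13563 genes) and 4 at least 2-fold lower (2.38%, against 2.71%), and the median was 0.02, against −0.01 over all genes. The 4 higher were *nhr-178*, *nhr-114*, *nhr-50* and *nhr-152*, and the 4 lower *nhr-263*, *nhr-21*, *nhr-117* and *nhr-58*. Of the 17 receptors that fell in mutant L1 larvae, 9 were also lower in the mutant adult library, where 51.6% of all genes were.

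*nhr-21* had 1217 counts in wild-type and 287 in mutant adults, a ratio of 0.374 (0.328 to 0.426) after scaling, and was thus low in the mutant at both stages. *nhr-5*, with 1003 and 350 counts, had a ratio of 0.553 (0.488 to 0.626) and was likewise lower at both. *nhr-117* had 1080 and 312 counts (ratio 0.458) and *nhr-58* 406 and 124 (ratio 0.484). *nhr-114* had 179 and 302 counts, a ratio of 2.68 (2.22 to 3.24), and *nhr-50* had 77 and 117, a ratio of 2.41. *nhr-76* and *nhr-203* had ratios of 1.90 and 1.89, and *nhr-41* of 0.608. In the same libraries the shunt gene *acdh-1* was at 778 CPM in wild type and 1604 CPM in the mutant, a ratio of 2.14. The ratios of the other shunt genes were 1.91 for *hach-1*, 1.28 for *ech-6*, 1.20 for *hphd-1* and 0.800 for *alh-8*. *nhr-68* was at 57.7 and 88.0 CPM, a ratio of 1.59, and *nhr-10* had a ratio of 1.195. A tie between these receptors and the shunt genes was not tested.

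*Genotype effects that differed between stages.* A term for genotype by stage, fitted in edgeR over the 6 libraries, took the lone adult libraries to vary as the larval ones do. It called 19 of 214 members tested (8.88%, against 9.15% of all 16376 genes), and 36 had an unadjusted p under 0.05. *nhr-17* had the clearest difference: its log2 value for mutant over wild type was −1.74 in larvae and 0.50 in adults, with 375 counts in wild-type and 334 in mutant adults, and the term was 2.19 (SE 0.20, adjusted p = 3.83e-09). *nhr-57*, at −0.97 in larvae and 0.40 in adults, had a term of 1.32 (adjusted p = 0.000922). The mutant thus had less of both receptors in starved larvae and not in the fed adult library.

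*nhr-114* had a term of 1.62 (adjusted p = 1.65e-05) and *nhr-68* of 0.72 (adjusted p = 0.00365), both with a higher mutant level in adults. For *nhr-117*, at 0.05 in larvae and −1.12 in adults, the term was −1.22 (adjusted p = 0.000106). *nhr-178*, in the same run of chromosome V, went the opposite way, with 20 and 49 counts in wild-type and mutant adults and a term of 1.64 (adjusted p = 0.0142). For *nhr-21* the term of −0.52 did not pass (adjusted p = 0.0586).

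**Figure D4:**
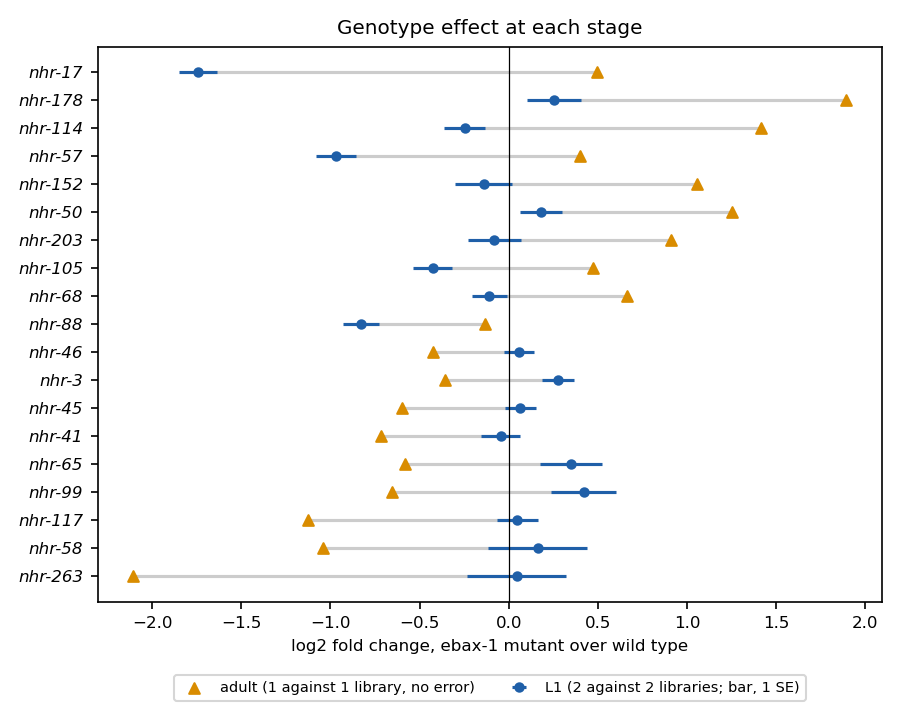
Log2 fold change of the *ebax-1* mutant over wild type for the 19 members with a called genotype-by-stage term. Blue circles with bars of 1 SE are L1 larvae (2 against 2 libraries), and orange triangles are adults (1 against 1 library, with no error). *nhr-17* moves from −1.74 in larvae to 0.50 in adults, and *nhr-117* from 0.05 to −1.12.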

How the data were processed

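The values the authors deposited are unnormalized read counts, 1 per gene and library. According to the methods and processing notes, STAR 2.7.1a aligned the single-end reads, those with a unique position were kept, and featureCounts assigned them by strand to coding sequence (WBcel235). Untranslated regions and reads shared by copies of a gene are therefore absent. Their own comparison was made with DESeq2.

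Symbols and coordinates came from the Ensembl annotation of WBcel235, in which 19620 of 20447 genes had a symbol. Counts were tested with edgeR 4.0.16 (R 4.3.3), after filtering by filterByExpr (minimum count 10), using TMM factors, the two-sided quasi-likelihood F-test, Benjamini-Hochberg adjustment over all genes and a threshold of 0.05. The L1 comparison used the 4 L1 libraries, and the stage and interaction fits used all 6. With 2 libraries a group, p-values rest on the spread edgeR pools over genes. The larval libraries are described by the study as separate biological replicates. Adult ratios used TMM-scaled CPM, a prior count of 1 and genes with at least 50 counts. The L1 and stage fits were run on counts simulated with the spread that edgeR fitted to these data, which cannot test that model. The interaction fit was not checked in this way. DESeq2 1.42.0 and other settings served as alternatives.

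Members and gene lists were chosen with earlier results of these data known. Named genes were those called in the L1 comparison (up to 12 in each direction), receptors of 4 role lists, the 6 highest per kb at each stage, the 5 highest and 5 lowest by stage and by adult ratio (at least 100 counts), and called genes of the other lists. Others were named after their values were seen. DNA-binding residues and microRNA sites were not analysed here.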

Additional observations from a re-analysis of the deposited data

Results flagged for a closer look

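The genotype effect of 19 receptors differed between L1 larvae and adults by the interaction term in edgeR (adjusted p under 0.05), each value being the log2 effect in adults minus that in larvae. The adult effects rest on 1 library per genotype, which the fit takes to vary like the larval ones, and the mutant strain also differs between the stages. Effects were higher in adults for *nhr-17* (2.19), *nhr-178* (1.64), *nhr-114* (1.62), *nhr-57* (1.32), *nhr-152* (1.16), *nhr-50* (1.03), *nhr-203* (0.94), *nhr-105* (0.85), *nhr-68* (0.72) and *nhr-88* (0.65). They were lower in adults for *nhr-263* (−2.31), *nhr-58* (−1.26), *nhr-117* (−1.22), *nhr-99* (−1.13), *nhr-65* (−0.99), *nhr-41* (−0.72), *nhr-45* (−0.71), *nhr-3* (−0.68) and *nhr-46* (−0.53). Of these genes, 5 were also called in the L1 comparison: *nhr-17*, *nhr-57*, *nhr-105*, *nhr-88* and *nhr-3*. In 5 refits chosen after seeing the data, which scaled by total counts or left out 1 L1 library each, *nhr-17*, *nhr-114*, *nhr-117*, *nhr-57*, *nhr-68*, *nhr-105*, *nhr-99* and *nhr-178* stayed called in every one. *nhr-203* lost its call in 4 of them.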

How the results depend on the processing

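In L1 larvae, where 1 member rose and 17 fell, total count scaling gave 13 and 10, no filter on low counts gave 3 that rose and DESeq2 gave 0 and 11 (2 rose at an unadjusted p under 0.05). Over all genes these settings called 2341 higher and 728 lower of 13756, 1041 and 1512 of 18426, and 382 and 887 of 20447. Leaving out 1 L1 library put the median of members at −0.05 to −0.01 and that of all genes at −0.002 to 0.01. Of the 18 called, 9 kept their call in all 9 alternatives: *nhr-17*, *nhr-21*, *nhr-57*, *nhr-88*, *nhr-5*, *nhr-62*, *nhr-18*, *nhr-80* and *nhr-103*. *nhr-3*, the gene that rose, lost it with DESeq2 and without either wild-type replicate or mutant replicate 1. Total count scaling moved the median of all genes from 0.01 to 0.17 and that of the members from −0.03 to 0.14. Same-numbered L1 libraries did not deviate together (correlation −0.01, across genes). With a replicate block 1 member rose and 16 fell, where 871 of all 13756 genes rose and 1378 fell.

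Between the stages, the median of members was −1.34 to −1.09 over 11 alternatives, and that of all genes 0.03 to 0.27. The values of −1.09 and 0.27 were those under total count scaling. In adults, a minimum of 100 counts left 3 members at least 2-fold higher and 3 lower, for which the share over all genes was not computed. In the refits of the interaction, all 19 called terms kept their sign, though some lost their call. Members with few counts limit these comparisons: 22 were not tested in larvae and 20 not between stages.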
